A study of Homo sapiens with 12 samples.

Results

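The DNA replication genes described here are a list of 40 genes for the machinery that copies the genome and for nucleotide synthesis, and 39 of them were measured among the 17958 genes of the series. A member was measured through the probe set that names it alone, and where there was more than 1 such probe set, through the one with the highest mean over the 12 arrays. PCNA, the sliding clamp, was left out because its probe set also names another gene. Total RNA came from BT549, a triple-negative human breast cancer line known to have lost RB1, the pocket protein that restrains E2F transcription factors. There were 4 groups of 3 arrays: c-Jun siRNA with tumour necrosis factor alpha (TNFα), c-Jun siRNA with vehicle, control siRNA with TNFα, and control siRNA with vehicle. The siRNA, a pool in the case of c-Jun, acted for 72 hours before TNFα or vehicle was added for 6 hours. Whether replicates came from independent cultures is not given, so the p-values reflect only variation among these samples, possibly technical.

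Replication starts when the origin recognition complex, CDC6 and CDT1 load the ring-shaped MCM2-7 helicase onto DNA in G1. At the onset of S phase MCM10, CDC45 and the GINS proteins turn the ring into an active helicase, and primase, the polymerases, the clamp loader and the nick-sealing enzymes follow the fork. Many of these genes are transcribed by E2F factors as cells pass from G1 into S phase, and AP-1, of which c-Jun is a subunit, is known for driving G1 progression. In a bulk RNA sample a higher share of cells in S phase and more of a transcript per cell cannot be told apart.

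JUN, the siRNA target, was lower with c-Jun siRNA at both treatments. JUN had log2 values of 10.36, 10.33 and 10.39 with c-Jun siRNA and TNFα, and 9.82, 9.85 and 9.81 with c-Jun siRNA and vehicle. With control siRNA it had 11.12, 11.05 and 11.05 with TNFα, and 10.36, 10.35 and 10.36 with vehicle. The c-Jun siRNA left 61.1% of the JUN signal under TNFα and 69.5% under vehicle, so the knockdown was partial. Markers of the labelled line were set against array medians of 5.62 to 5.68. The 4 mesenchymal markers were high, with group means of 12.57 to 12.72 for VIM, 11.04 to 11.84 for FN1, 10.28 to 10.70 for ZEB1 and 9.71 to 9.90 for CDH2. ESR1, PGR, EPCAM, CLDN4, the leukocyte markers PTPRC, CD14 and CD3E and the endothelial markers PECAM1 and CDH5 lay below the medians, while the keratins KRT8 (5.92 to 6.11) and KRT18 (8.28 to 9.37) lay above them.

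Several of these markers moved with the groups. With c-Jun siRNA FN1 fell by 0.60 under TNFα and by 0.45 under vehicle, and all 4 mesenchymal markers fell under vehicle, ZEB1 by 0.27. The epithelial marker CDH1, below the medians at 4.45 to 5.48, rose with c-Jun siRNA by 0.95 under TNFα and 0.55 under vehicle, and KRT18 rose by 0.72 and 0.77, more than any replication gene. The other epithelial and luminal markers, EPCAM, CLDN4, ESR1, PGR and KRT8, were called for c-Jun siRNA at neither treatment. With TNFα KRT18 fell by 0.38 under c-Jun siRNA and by 0.32 under control siRNA, ZEB1 fell by 0.15 and 0.38, and FN1 rose by 0.20 and 0.36. The part of these markers in the results on replication genes was not tested.

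The arrays also differ in position and perhaps in source. Array names carry a position code whose number, read as a column, is 9, 7 and 9 for c-Jun siRNA with TNFα, 5 on all arrays of c-Jun siRNA with vehicle, 9, 7 and 7 for control siRNA with TNFα, and 7, 7 and 5 for control siRNA with vehicle. The name of replicate 3 of c-Jun siRNA with TNFα reads as a second run of replicate 1. Those arrays differed by an SD of 0.121 over all genes, within the 0.119 to 0.142 of the 12 within-group pairs, and they were kept as separate replicates. Counts with both averaged, and with the position column as a block, stand beside the results below.

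What the members share outside the arrays can be seen in their promoters. RefSeq promoters (GRCh38.p14, 250 bases before to 50 after the start) were at hand for 36 of the 40 genes. The E2F pattern TTTNNCGC, searched on both strands, was present in 21 of these 36 (58.3%), against 8.23% of 27305 genes. CCAAT boxes (CCAAT) were in 61.1% of members and 39.7% of genes, and GC boxes (GGGCGG) in 75% and 48.3%. The AP-1 pattern TGANTCA was in 1 member, GINS1 (2.78%, against 9.37% of genes), and an NF-kB pattern in 4 members (11.1%, against 7.83%). Any of these patterns may overlap another, and a match is a run of letters, not a shown binding site. The promoters of the 4 members with the largest changes are printed here from 250 bases before the start to 30 after it, in the direction of the gene, with capitals for E2F and CCAAT matches on either strand.
CDC6 (chr17:40287629-40287908, strand +): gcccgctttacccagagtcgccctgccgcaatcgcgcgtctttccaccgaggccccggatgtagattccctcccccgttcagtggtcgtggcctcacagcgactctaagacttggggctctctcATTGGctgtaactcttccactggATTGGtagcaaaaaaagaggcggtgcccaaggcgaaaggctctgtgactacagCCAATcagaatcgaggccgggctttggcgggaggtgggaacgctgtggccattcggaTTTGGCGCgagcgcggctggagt
TYMS (chr18:657403-657682, strand +): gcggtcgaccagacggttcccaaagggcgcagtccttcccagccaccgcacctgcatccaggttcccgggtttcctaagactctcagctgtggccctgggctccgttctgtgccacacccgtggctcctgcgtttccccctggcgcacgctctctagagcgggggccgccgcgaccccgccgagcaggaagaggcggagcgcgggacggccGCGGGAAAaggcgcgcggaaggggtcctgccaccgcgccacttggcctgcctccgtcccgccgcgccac
ORC2 (chr2:200963631-200963910, strand -): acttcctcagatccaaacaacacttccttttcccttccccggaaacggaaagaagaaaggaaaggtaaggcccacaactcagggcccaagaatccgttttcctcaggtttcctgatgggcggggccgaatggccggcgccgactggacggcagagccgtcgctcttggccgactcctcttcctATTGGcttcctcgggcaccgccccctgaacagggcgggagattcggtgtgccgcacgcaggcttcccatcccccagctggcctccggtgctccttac
PRIM1 (chr12:56752294-56752573, strand -): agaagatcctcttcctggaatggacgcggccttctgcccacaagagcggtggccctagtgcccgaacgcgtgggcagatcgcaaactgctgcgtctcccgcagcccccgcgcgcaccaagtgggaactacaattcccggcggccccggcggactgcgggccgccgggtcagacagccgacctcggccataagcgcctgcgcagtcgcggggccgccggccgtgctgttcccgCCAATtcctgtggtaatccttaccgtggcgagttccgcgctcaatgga
CDC6 holds 3 CCAAT boxes, the nearest beginning 50 bases before the start, and an E2F match that begins at base 8 of the transcript. TYMS holds an E2F match that begins 39 bases before the start. ORC2 and PRIM1 hold a CCAAT box each, and no E2F match in this window.

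With c-Jun siRNA more replication genes rose than fell, at either treatment. Under TNFα 17 of the 39 members rose and 2 fell (limma, Benjamini-Hochberg adjusted p under 0.05 over all genes), where 14.1% of all genes rose and 14.4% fell. Under vehicle 17 rose and 4 fell, where 14.4% of all genes rose and 14.5% fell. The same 15 members rose in both, 88.2% of each set, against 67.6% of the genes that rose under vehicle and 68.9% of those that rose under TNFα over the whole array. These pairs of groups have no array in common. Changes were small: the median member stood 0.099 higher on the log2 scale under TNFα and 0.079 under vehicle, where the median of all genes moved by 0.001 and -0.007. No member changed 2-fold, and the largest rise was 0.55. When array medians were set equal, 38.8% of all genes called under vehicle were lower, against 50.2% as deposited, and the members then counted 18 higher and 2 lower. All 39 members stayed when the dimmest 50% of genes were left out. Under TNFα 50.7% of the remaining genes were then called, 50.1% of those lower, with 18 members higher and 3 lower. Under vehicle 51.5% were called, 49.9% of those lower, with 17 members higher and 4 lower. Among brighter genes the members were thus called about as often as the rest, and their calls were mostly rises.

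**Figure D1:**
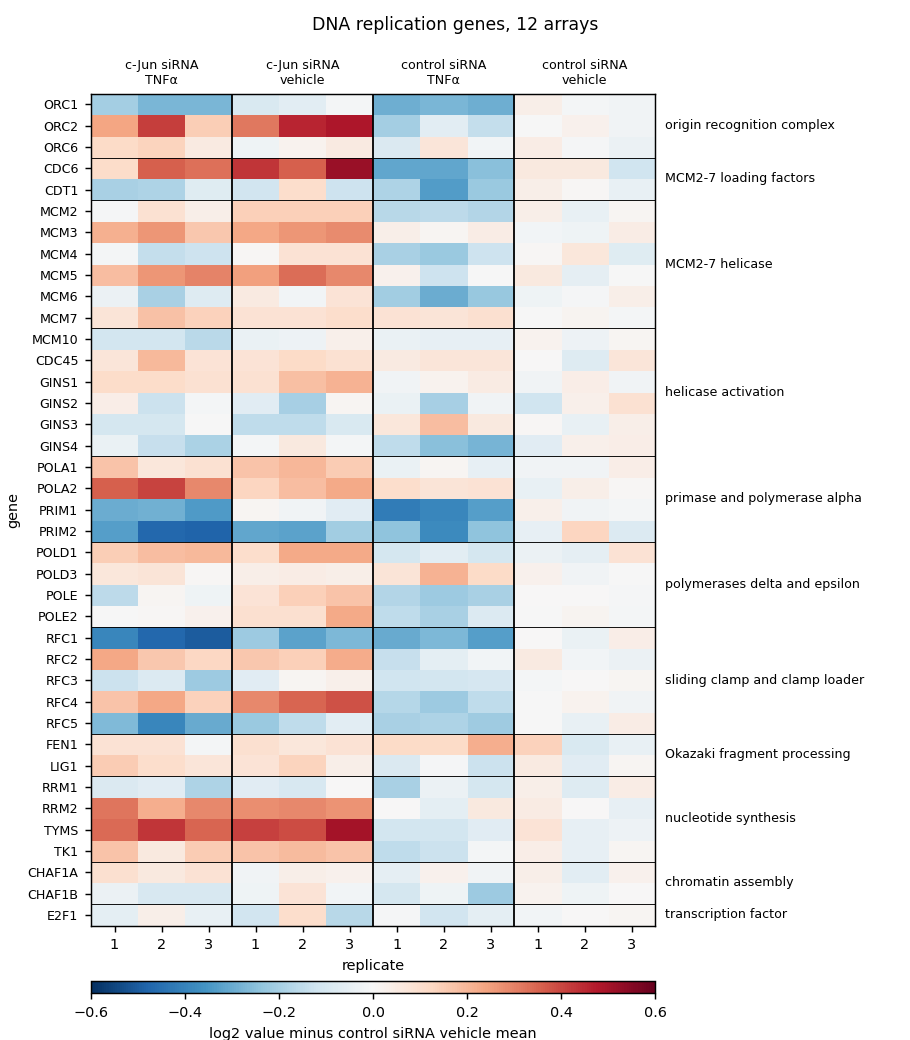
Log2 expression of the 39 replication genes (rows, ordered by role) on each of the 12 arrays (columns, 3 replicates per group), as the difference from the gene's mean in control siRNA with vehicle; red is higher and blue lower. CDC6, TYMS, ORC2 and RFC4 are red on all 6 arrays with c-Jun siRNA, while PRIM1 and RFC1 are blue on all 6 arrays with TNFα.

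CDC6, the loader that brings the helicase to origins, rose most. It had log2 values of 9.98, 10.23 and 10.20 with c-Jun siRNA and TNFα, and 10.30, 10.23 and 10.39 with c-Jun siRNA and vehicle. With control siRNA its values were 9.56, 9.56 and 9.62 under TNFα and 9.93, 9.93 and 9.75 under vehicle. Every array with c-Jun siRNA lay above every array with control siRNA at the same treatment. The log2 fold change was 0.55 ± 0.061 (SE, n = 3 per group; limma adjusted p = 1.27e-06) under TNFα, which is 1.47-fold, and 0.44 ± 0.061 (limma adjusted p = 2.01e-05) under vehicle. CDT1, the other loading factor, gave 0.10 ± 0.061 and -0.04 ± 0.061 and passed in neither.

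TYMS, the thymidylate synthase that makes the DNA-specific nucleotide, followed closely. Its log2 values were 11.08, 11.17 and 11.09 with c-Jun siRNA and TNFα, and 11.15, 11.13 and 11.24 with c-Jun siRNA and vehicle. Control siRNA gave 10.63, 10.63 and 10.67 under TNFα and 10.82, 10.69 and 10.71 under vehicle. The groups with c-Jun siRNA did not overlap those with control siRNA. Its log2 fold changes were 0.47 ± 0.039 (limma adjusted p = 3.24e-08) under TNFα and 0.43 ± 0.039 (limma adjusted p = 7.68e-08) under vehicle. RRM2 had log2 values of 10.29, 10.19 and 10.26 with c-Jun siRNA and TNFα, and 10.25, 10.26 and 10.24 with c-Jun siRNA and vehicle. RRM2 in control siRNA cells stood at 9.97, 9.91 and 10.03 with TNFα, against 10.02, 9.97 and 9.92 with vehicle. Every array with c-Jun siRNA lay above every array with control siRNA. The ribonucleotide reductase subunit RRM2 rose by 0.28 at both treatments, and the thymidine kinase TK1 by 0.22 under TNFα and 0.18 under vehicle. TK1 had log2 values of 10.98, 10.87 and 10.96 with c-Jun siRNA and TNFα, and 10.98, 11 and 10.98 with c-Jun siRNA and vehicle. TK1 in control siRNA cells stood at 10.66, 10.68 and 10.80 with TNFα, against 10.85, 10.76 and 10.82 with vehicle. For TK1 the siRNAs did not overlap at either treatment. RRM1, the large reductase subunit, gave 0.00 ± 0.047 and -0.05 ± 0.047 and passed in neither.

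In the origin recognition complex, only ORC2 among the 3 members measured passed for the c-Jun siRNA. ORC2 had 8.72, 8.90 and 8.63 with c-Jun siRNA and TNFα, and 8.80, 8.94 and 8.97 with c-Jun siRNA and vehicle. Its control siRNA values were 8.28, 8.42 and 8.34 under TNFα and 8.48, 8.51 and 8.46 under vehicle, all below the lowest array with c-Jun siRNA. The log2 fold changes were 0.40 ± 0.063 (limma adjusted p = 5.87e-05) and 0.42 ± 0.063 (limma adjusted p = 3.9e-05). ORC1, the cell-cycle-regulated ATPase of the complex, gave 0.04 ± 0.04 under TNFα and -0.06 ± 0.04 under vehicle. ORC6 gave 0.11 ± 0.051 and 0.02 ± 0.051.

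Of the 6 subunits of the MCM2-7 helicase, 4 rose at each treatment and none fell. MCM5 had log2 values of 10.04, 10.12 and 10.15 with c-Jun siRNA and TNFα, and 10.10, 10.19 and 10.14 with c-Jun siRNA and vehicle. MCM5 in control siRNA cells stood at 9.88, 9.73 and 9.85 with TNFα, against 9.91, 9.80 and 9.85 with vehicle. For MCM5 the siRNAs did not overlap at either treatment. MCM5 rose by 0.28 under TNFα and 0.29 under vehicle, MCM3 by 0.18 and 0.26, and MCM2 by 0.21 and 0.14. MCM3 had log2 values of 10.56, 10.61 and 10.51 with c-Jun siRNA and TNFα, and 10.58, 10.61 and 10.63 with c-Jun siRNA and vehicle. MCM3 in control siRNA cells stood at 10.38, 10.36 and 10.39 with TNFα, against 10.33, 10.32 and 10.39 with vehicle. For MCM3 the siRNAs did not overlap at either treatment. The fourth was MCM6 under TNFα (0.14 ± 0.044, limma adjusted p = 0.022) and MCM7 under vehicle (0.09 ± 0.029, limma adjusted p = 0.023). MCM4 passed in neither, at 0.09 and 0.06. The genes that activate the helicase moved little. GINS3 had log2 values of 8.59, 8.59 and 8.69 with c-Jun siRNA and TNFα, and 8.54, 8.54 and 8.60 with c-Jun siRNA and vehicle. GINS3 in control siRNA cells stood at 8.76, 8.88 and 8.75 with TNFα, against 8.70, 8.65 and 8.73 with vehicle. For GINS3 the siRNAs did not overlap at either treatment. GINS1 rose by 0.16 under vehicle, and GINS3 fell by 0.17 under TNFα and by 0.14 under vehicle. MCM10, CDC45, GINS2 and GINS4 passed at neither treatment, with log2 fold changes from -0.09 to 0.10.

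The subunits of the clamp loader, a ring of 5 RFC proteins, moved both ways. RFC4 had 10.94, 11 and 10.91 with c-Jun siRNA and TNFα, and 11.06, 11.12 and 11.15 with c-Jun siRNA and vehicle. Its control siRNA values were 10.60, 10.55 and 10.62 under TNFα and 10.77, 10.79 and 10.75 under vehicle. That is a log2 fold change of 0.36 ± 0.034 (limma adjusted p = 1.32e-07) under TNFα and 0.34 ± 0.034 (limma adjusted p = 2.65e-07) under vehicle, with no overlap between the siRNAs. RFC2 rose too, by 0.24 and 0.18. RFC1, the large subunit, fell by 0.15 under TNFα and by 0.27 under vehicle. Its second probe set gave 0.14 under TNFα and -0.10 under vehicle and passed in neither, and the mean of both probe sets gave 0.00 under TNFα and -0.18 under vehicle, which ended both calls. RFC5 fell by 0.14 under vehicle and gave -0.12 under TNFα, which did not pass, and RFC3 gave -0.03 and -0.01.

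Among the polymerases, rises prevailed. POLA2 had log2 values of 9.07, 9.12 and 9.0 with c-Jun siRNA and TNFα, and 8.84, 8.90 and 8.94 with c-Jun siRNA and vehicle. POLA2 in control siRNA cells stood at 8.82, 8.79 and 8.80 with TNFα, against 8.67, 8.75 and 8.72 with vehicle. For POLA2 the siRNAs did not overlap at either treatment. POLA2, the B subunit of polymerase alpha, rose by 0.26 under TNFα and 0.18 under vehicle, and its catalytic partner POLA1 by 0.14 and 0.18. POLD1 had log2 values of 8.70, 8.74 and 8.75 with c-Jun siRNA and TNFα, and 8.66, 8.78 and 8.78 with c-Jun siRNA and vehicle. POLD1 in control siRNA cells stood at 8.45, 8.49 and 8.45 with TNFα, against 8.52, 8.50 and 8.64 with vehicle. For POLD1 the siRNAs did not overlap at either treatment. POLD1, the catalytic subunit of polymerase delta, rose by 0.27 and 0.18, POLE of polymerase epsilon by 0.14 and 0.13, and POLE2 by 0.16 and 0.14. PRIM2 had log2 values of 8.47, 8.33 and 8.32 with c-Jun siRNA and TNFα, and 8.49, 8.48 and 8.59 with c-Jun siRNA and vehicle. PRIM2 in control siRNA cells stood at 8.56, 8.42 and 8.56 with TNFα, against 8.75, 8.93 and 8.72 with vehicle. For PRIM2 the siRNAs overlapped under TNFα and not under vehicle. PRIM2, the large primase subunit, fell by 0.28 under vehicle (± 0.062, limma adjusted p = 0.00183) and gave -0.14 under TNFα, which did not pass. PRIM1, POLD3 and the flap endonuclease FEN1 passed at neither treatment. LIG1 had log2 values of 8.49, 8.44 and 8.41 with c-Jun siRNA and TNFα, and 8.42, 8.47 and 8.37 with c-Jun siRNA and vehicle. LIG1 in control siRNA cells stood at 8.25, 8.33 and 8.21 with TNFα, against 8.39, 8.27 and 8.35 with vehicle. For LIG1 the siRNAs overlapped under vehicle and not under TNFα. LIG1, the ligase that joins Okazaki fragments, rose by 0.18 under TNFα. The chromatin assembly subunits CHAF1A and CHAF1B gave 0.01 to 0.10. E2F1, the transcription factor of the list, gave 0.04 ± 0.053 under TNFα and -0.06 ± 0.053 under vehicle, and passed in neither.

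**Figure D2:**
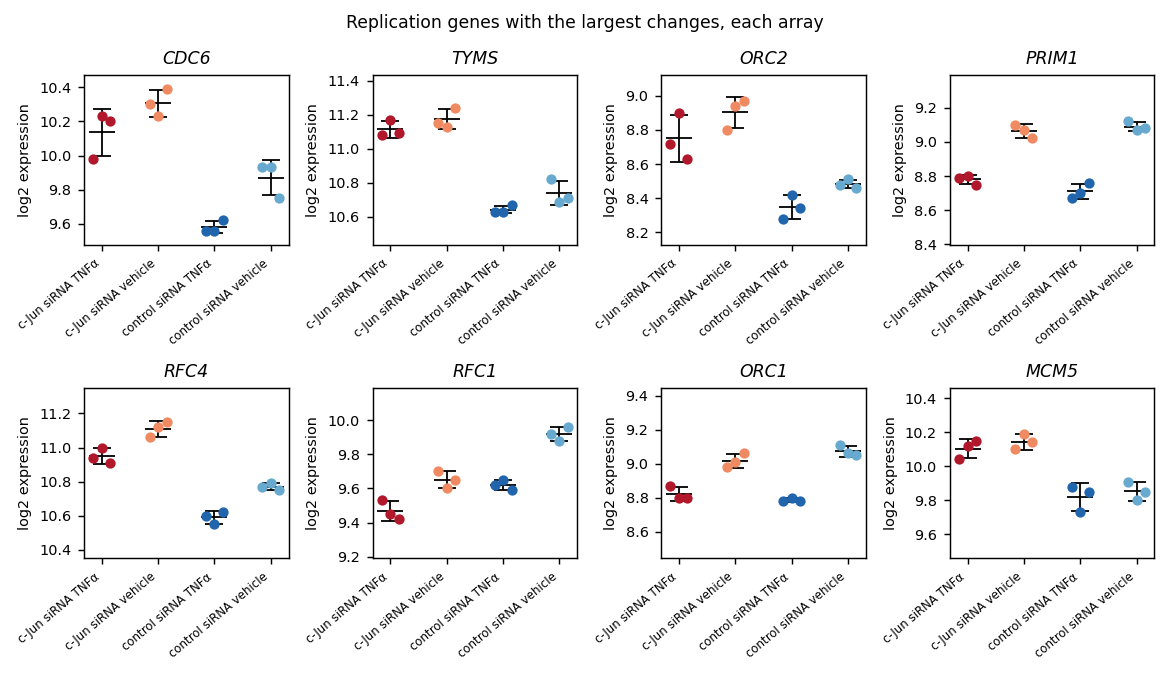
Log2 expression on each array of the 8 replication genes with the largest absolute change in any comparison; points are arrays, black bars the group mean ± SD (n = 3), and every panel spans 1 log2 unit. CDC6, TYMS, ORC2, RFC4 and MCM5 are higher in the groups with c-Jun siRNA, and PRIM1 and ORC1 are lower in the groups with TNFα.

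The position column moves with the siRNA under vehicle, since all arrays of c-Jun siRNA with vehicle carry column 5. With the column as a fixed block, 9 members rose and 1 fell under vehicle, where 19.2% of all genes were called, 49.3% of those lower. All 21 members called without the block kept their sign. CDC6 (0.55), TYMS (0.46), ORC2 (0.44), RFC4 (0.36), RRM2 (0.33), MCM5 (0.29), RFC2 (0.21), MCM3 (0.21), GINS1 (0.18) and RFC1 (-0.31) were called in that fit. Column 5 holds a single control siRNA array with vehicle, so only effect sizes are given within it. The median member stood 0.069 higher there, and the same 21 members again kept their sign. Under TNFα the block left 16 higher and 3 lower, where 26.9% of all genes were called, 50.7% of those lower. Column 7 holds a single c-Jun siRNA array with TNFα and column 9 a single control siRNA array with TNFα. Only effect sizes are given there as well. The median member stood 0.097 higher within column 7 and 0.121 higher within column 9. All 19 members called under TNFα without the block kept their sign in both columns. With replicates 1 and 3 of c-Jun siRNA with TNFα averaged, 16 rose and 2 fell under TNFα, where 25.7% of all genes were called, 50.3% of those lower.

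With TNFα more members fell than rose. With c-Jun siRNA 14 members fell and 1 rose, where 18.3% of all genes fell and 11.3% rose. With control siRNA 16 members fell and 3 rose, where 21.9% of all genes fell and 13.8% rose. The median member was lower by 0.063 with c-Jun siRNA (median log2 fold change -0.063) and stood at -0.096 with control siRNA, where the medians of all genes were -0.016 and -0.023. Of the members that fell, 13 fell under both siRNAs, which is 92.9% of those with c-Jun siRNA and 81.2% of those with control siRNA, against 79.7% and 66.6% over all genes. With the dimmest 50% of genes left out, 51.2% of the remaining genes were called with c-Jun siRNA, 62.3% of those lower. The members then counted 15 lower and 1 higher. With control siRNA 59.7% were called, 61.1% of those lower, and the members counted 19 lower and 3 higher. Among brighter genes the members were thus called no more often than the rest, and their calls were mostly falls. The TNFα comparisons share no arrays with each other. Each shares its vehicle arrays with the c-Jun siRNA comparison under vehicle, and its TNFα arrays with that under TNFα.

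PRIM1, the catalytic primase subunit that writes the RNA primers, fell most. It had 8.79, 8.80 and 8.75 with c-Jun siRNA and TNFα, against 9.10, 9.07 and 9.02 with c-Jun siRNA and vehicle. With control siRNA its values were 8.67, 8.70 and 8.76 under TNFα, against 9.12, 9.07 and 9.08 under vehicle. No array with TNFα reached any array with vehicle. The log2 fold change was -0.28 ± 0.04 (SE, n = 3 per group; limma adjusted p = 1.95e-05) with c-Jun siRNA and -0.38 ± 0.04 (limma adjusted p = 3.72e-07) with control siRNA. PRIM2 gave -0.15 ± 0.062 with c-Jun siRNA, which did not pass, and fell by 0.28 with control siRNA.

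Of the 5 licensing genes, ORC1 and CDC6 fell under both siRNAs and CDT1 under control siRNA. ORC2 gave -0.15 with c-Jun siRNA and -0.14 with control siRNA, and ORC6 0.08 and -0.01, and neither passed. ORC1 had 8.87, 8.80 and 8.80 with c-Jun siRNA and TNFα, against 8.98, 9.01 and 9.06 with c-Jun siRNA and vehicle. Its control siRNA values were 8.78, 8.80 and 8.78 under TNFα, against 9.11, 9.06 and 9.05 under vehicle. The groups with TNFα and vehicle did not overlap, and the log2 fold changes were -0.19 ± 0.04 (limma adjusted p = 0.00103) and -0.29 ± 0.04 (limma adjusted p = 9.8e-06). CDC6 fell by 0.17 with c-Jun siRNA and by 0.29 with control siRNA. CDT1 had log2 values of 8.42, 8.43 and 8.54 with c-Jun siRNA and TNFα, and 8.50, 8.72 and 8.49 with c-Jun siRNA and vehicle. CDT1 in control siRNA cells stood at 8.43, 8.28 and 8.39 with TNFα, against 8.65, 8.62 and 8.57 with vehicle. For CDT1 TNFα and vehicle overlapped under c-Jun siRNA and not under control siRNA. CDT1 fell by 0.25 with control siRNA and gave -0.11 with c-Jun siRNA, which did not pass.

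In the helicase ring MCM6 fell by 0.15 with c-Jun siRNA and by 0.24 with control siRNA, MCM4 by 0.15 and 0.18, and MCM2 by 0.10 and 0.17. MCM7 rose by 0.09 with control siRNA and gave 0.04 with c-Jun siRNA. MCM3 and MCM5 passed with neither siRNA, at -0.04 to 0.03. GINS4 had log2 values of 9.03, 8.93 and 8.88 with c-Jun siRNA and TNFα, and 9.06, 9.13 and 9.06 with c-Jun siRNA and vehicle. GINS4 in control siRNA cells stood at 8.92, 8.82 and 8.79 with TNFα, against 9.0, 9.10 and 9.11 with vehicle. For GINS4 TNFα and vehicle did not overlap under either siRNA. GINS4, of the helicase activating complex, fell by 0.14 and 0.22, and MCM10 fell by 0.11 with c-Jun siRNA and gave -0.05 with control siRNA, a difference of -0.07 ± 0.048 that did not pass.

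At the fork, RFC1, RFC3, RFC4 and RFC5 of the clamp loader fell under both siRNAs. RFC1 had 9.53, 9.45 and 9.42 with c-Jun siRNA and TNFα, against 9.70, 9.60 and 9.65 with c-Jun siRNA and vehicle. With control siRNA it had 9.62, 9.65 and 9.59 under TNFα, against 9.92, 9.88 and 9.96 under vehicle. These are log2 fold changes of -0.18 ± 0.039 (limma adjusted p = 0.00154) and -0.30 ± 0.039 (limma adjusted p = 5.82e-06), and RFC1 was lowest where c-Jun siRNA and TNFα came together. A second, dimmer RFC1 probe set with a mean of 7.21 rose with TNFα by 0.52 ± 0.14 with c-Jun siRNA (limma adjusted p = 0.0108 over all probe sets) and gave 0.28 ± 0.14 with control siRNA (adjusted p = 0.165 in the same limma fit). With both probe sets averaged, RFC1 was called lower with neither siRNA. RFC5 had log2 values of 8.86, 8.73 and 8.82 with c-Jun siRNA and TNFα, and 8.90, 8.97 and 9.06 with c-Jun siRNA and vehicle. RFC5 in control siRNA cells stood at 8.93, 8.94 and 8.91 with TNFα, against 9.12, 9.08 and 9.17 with vehicle. For RFC5 TNFα and vehicle did not overlap under either siRNA. The falls of the other 3 loader subunits were 0.13 to 0.17 with c-Jun siRNA and 0.11 to 0.19 with control siRNA. POLE had log2 values of 9.33, 9.50 and 9.46 with c-Jun siRNA and TNFα, and 9.57, 9.63 and 9.66 with c-Jun siRNA and vehicle. POLE in control siRNA cells stood at 9.31, 9.27 and 9.29 with TNFα, against 9.49, 9.49 and 9.48 with vehicle. For POLE TNFα and vehicle did not overlap under either siRNA. POLE fell by 0.19 and 0.20 and POLE2 by 0.13 and 0.15.

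Members that rose with TNFα were few. POLA2 rose by 0.17 with c-Jun siRNA and gave 0.09 with control siRNA. FEN1 had log2 values of 9.41, 9.41 and 9.31 with c-Jun siRNA and TNFα, and 9.42, 9.39 and 9.41 with c-Jun siRNA and vehicle. FEN1 in control siRNA cells stood at 9.44, 9.44 and 9.54 with TNFα, against 9.46, 9.23 and 9.28 with vehicle. For FEN1 TNFα and vehicle overlapped under both siRNAs. POLD3, an accessory subunit of polymerase delta, rose by 0.13 and FEN1 by 0.15 with control siRNA, and gave 0.01 and -0.03 with c-Jun siRNA. The 4 nucleotide synthesis genes passed with neither siRNA, TYMS at -0.06 and -0.10 and RRM2 at 0.00 in both. CHAF1B had log2 values of 9.72, 9.66 and 9.66 with c-Jun siRNA and TNFα, and 9.73, 9.84 and 9.74 with c-Jun siRNA and vehicle. CHAF1B in control siRNA cells stood at 9.65, 9.73 and 9.54 with TNFα, against 9.78, 9.73 and 9.76 with vehicle. For CHAF1B TNFα and vehicle overlapped under control siRNA and not under c-Jun siRNA. CHAF1B fell by 0.12 with control siRNA, while CHAF1A and E2F1 passed with neither siRNA. CDC45, GINS1, GINS2, GINS3, POLA1, POLD1, RFC2 and LIG1 also passed with neither, at -0.09 to 0.10.

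For TNFα with c-Jun siRNA no position column holds arrays of both groups. With the column as a fixed block across all groups, 2 members were called, MCM4 (-0.28) and PRIM1 (-0.26), no larger a share than the 13.2% of all genes. All 15 members called without the block kept their sign. Without replicate 3 of c-Jun siRNA with vehicle 7 fell and 1 rose, where 27.4% of all genes were called, 60.7% of those lower. With replicates 1 and 3 of c-Jun siRNA with TNFα averaged 11 fell and 1 rose, where 26.8% of all genes were called, 61.3% of those lower. With control siRNA the fixed block left 13 lower and 2 higher, where 31.7% of all genes were called, 60.4% of those lower. Within column 7, which holds 2 arrays of each group, 13 fell and 1 rose, where 28.7% of all genes were called.

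Whether the TNFα effect depends on c-Jun siRNA was tested by an interaction. The interaction, the TNFα effect with c-Jun siRNA minus that with control siRNA, was called for 5.47% of all genes and for 0 of the 39 members by limma, of which 3 had an unadjusted p under 0.05. These were FEN1 (-0.18 ± 0.074, limma adjusted p = 0.205), POLD3 (-0.12 ± 0.055, limma adjusted p = 0.276) and RFC1 (0.12 ± 0.056, limma adjusted p = 0.282). The 95% intervals of the members ran from -0.34 to 0.33, and for 31 members the interval lay within 0.25 of 0, so differences of that size or smaller cannot be called absent. FEN1 passed when replicate 1 of control siRNA with vehicle was left out (-0.25). CDC6 gave 0.12 ± 0.087, PRIM1 0.10 ± 0.057 and TYMS 0.03 ± 0.055.

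By group means, 11 members ran in the order c-Jun siRNA with vehicle, c-Jun siRNA with TNFα, control siRNA with vehicle, control siRNA with TNFα from high to low. Control siRNA with TNFα was the lowest group for 23 of 39 members, and c-Jun siRNA with vehicle the highest for 19. These counts are given for the members only, and whether they differ from those of all genes was not tested. Per array, the median member stood 0.027 to 0.061 above its control siRNA vehicle mean with c-Jun siRNA and TNFα, and 0.077 to 0.093 above it with c-Jun siRNA and vehicle. With control siRNA and TNFα it stood at -0.109 to -0.087, and the control siRNA vehicle arrays themselves ran from -0.014 to 0.004. The 4 groups did not overlap in this median.

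**Figure D3:**
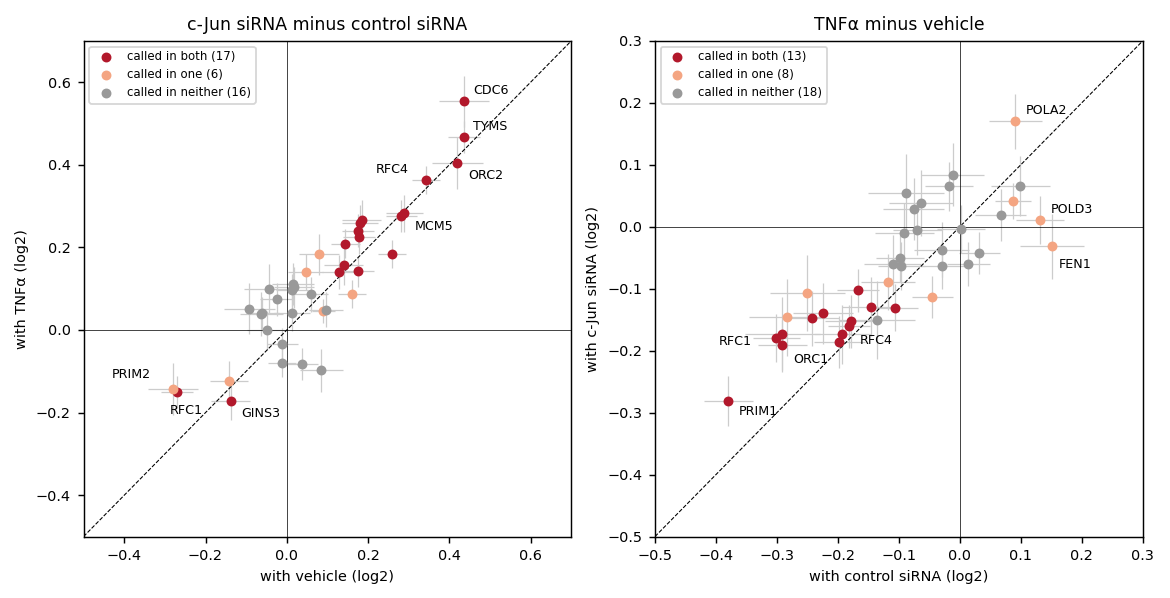
Log2 fold changes of the 39 replication genes in pairs of comparisons that share no arrays: left, c-Jun siRNA minus control siRNA under TNFα (vertical) and vehicle (horizontal); right, TNFα minus vehicle with c-Jun siRNA (vertical) and control siRNA (horizontal). Grey lines are standard errors and the dashed line marks equal effects; 17 members were called in both comparisons on the left and 13 on the right.

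Other genes of the pathway, outside the list, were counted for comparison. Of 56 such genes, in 8 lists, 18 rose and 7 fell with c-Jun siRNA under TNFα, and 14 rose and 5 fell under vehicle. These are 32.1% higher and 12.5% lower under TNFα, and 25% higher and 8.93% lower under vehicle, against 14.1% to 14.5% of all genes in each direction. In either direction 44.6% and 33.9% of the 56 were called. With the dimmest 50% of genes left out, 50.7% and 51.5% of the remaining genes were called. The 56 were not filtered in that way. With TNFα 10 fell and 7 rose under c-Jun siRNA, or 17.9% and 12.5%, near the 18.3% and 11.3% of all genes. Under control siRNA 18 fell and 8 rose, or 32.1% and 14.3%, against 21.9% and 13.8% of all genes. In either direction TNFα calls made up 30.4% under c-Jun siRNA and 46.4% under control siRNA, against 51.2% and 59.7% of the brighter genes. None of the 56 had a called interaction in limma, and 8 had an unadjusted p under 0.05. MCM8, a helicase of recombination repair, rose with c-Jun siRNA by 0.35 under TNFα and 0.39 under vehicle. Among origin firing genes DONSON rose by 0.34 and 0.30 and WDHD1 by 0.27 and 0.25, and TICRR fell by 0.13 and 0.21. The fork protection factor TIMELESS rose by 0.37 and 0.30. DSCC1, of an alternative clamp loader, rose by 0.29 under TNFα and 0.17 under vehicle with c-Jun siRNA, and fell with TNFα by 0.22 under c-Jun siRNA and 0.34 under control siRNA. The histone chaperone ASF1A took the same course, with rises of 0.37 and 0.22 and falls of 0.27 and 0.42. SHMT1, a folate enzyme of thymidylate supply, rose with c-Jun siRNA by 0.22 under TNFα and fell with TNFα by 0.27 and 0.47.

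In the E2F and RB family, 11 genes of the 56, 2 rose and 4 fell with c-Jun siRNA under TNFα, and 3 rose and 3 fell under vehicle. That is 18.2% higher and 36.4% lower under TNFα and 27.3% each way under vehicle, against 14.1% to 14.5% of all genes. With TNFα 2 rose and 4 fell under c-Jun siRNA, and 3 rose and 5 fell under control siRNA. Under c-Jun siRNA these are 18.2% and 36.4%, against 11.3% and 18.3% of all genes. Under control siRNA they are 27.3% and 45.5%, against 13.8% and 21.9%. E2F2, an activator, fell with c-Jun siRNA by 0.33 under TNFα and 0.29 under vehicle, and with TNFα by 0.43 under c-Jun siRNA and 0.39 under control siRNA. E2F7 and E2F8, repressors of the E2F programme, were lower with c-Jun siRNA: E2F7 by 0.25 under TNFα and 0.39 under vehicle, and E2F8 by 0.26 and 0.23. With TNFα E2F7 fell by 0.25 under c-Jun siRNA and 0.38 under control siRNA, and E2F8 by 0.19 and 0.17. E2F5 rose with c-Jun siRNA by 0.30 under TNFα and 0.22 under vehicle, and the RB1 relative RBL1 by 0.16 and 0.11. E2F6 fell with c-Jun siRNA by 0.21 under TNFα and rose with TNFα by 0.22 under control siRNA. E2F3, an activator, rose with TNFα by 0.19 and 0.17, and TFDP2, an E2F partner, fell by 0.24 and 0.30. E2F4, a factor linked to repression in resting cells, rose with TNFα by 0.24 and 0.38 and with c-Jun siRNA under vehicle by 0.12. RB1 stood at group means of 6.02 to 6.16, near the array medians, and passed in no comparison. Of the G1/S kinase genes CCNE1 fell with c-Jun siRNA by 0.18 at both treatments, and the phosphatase CDC25A rose with TNFα by 0.23 and 0.29.

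Mitosis genes were the other large group tied to cell division. With c-Jun siRNA, of 24 measured, 4 rose and 6 fell under TNFα, and 1 rose and 8 fell under vehicle, among them UBE2C (-0.24 and -0.29) and CENPE (-0.21 and -0.28). These are 16.7% higher and 25% lower under TNFα, and 4.17% and 33.3% under vehicle. Of all genes 14.1% to 14.5% were called in each direction. With TNFα 6 fell and 3 rose under c-Jun siRNA, and 15 fell and 2 rose under control siRNA, with CDC25C at -0.37 and -0.43. Under c-Jun siRNA this is 25% lower and 12.5% higher, against 18.3% and 11.3% of all genes. Under control siRNA it is 62.5% lower and 8.33% higher, against 21.9% and 13.8% of all genes. Of the replication genes 41% fell there. The difference between the lists was not tested.

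**Figure D4:**
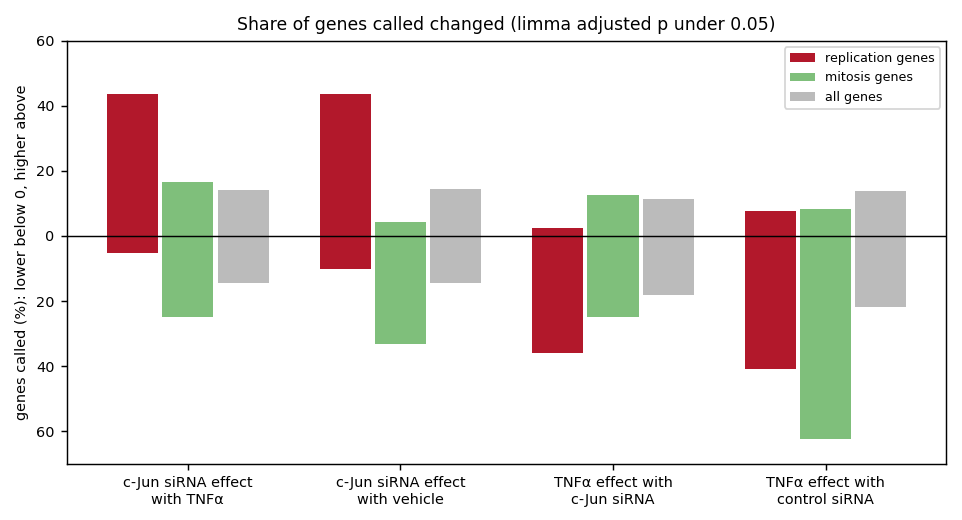
Share of genes called higher (above 0) and lower (below 0) in the 4 comparisons, for the 39 replication genes, 24 mitosis genes and all 17958 genes (limma adjusted p under 0.05). For c-Jun siRNA 43.6% of replication genes rose at either treatment, against 14.1% and 14.4% of all genes. All genes include the dimmest 50%. Without them 50.7% (TNFα) and 51.5% (vehicle) of genes were called for c-Jun siRNA, in either direction.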

How the data were processed

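Total RNA of 12 BT549 samples was measured on Affymetrix human gene arrays. The deposited values are log2 expression per probe set, with the base inferred from their range of 2.27 to 13.97 and a common scale inferred from quartiles that differ by at most 0.061. The submitters' processing notes name Affymetrix Expression Console 1.1 and PLIER without their roles; other steps are not given in the sources used here. No further normalisation was applied, and the arrays' number limits the precision.

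Of 33297 probe sets 19181 had 1 symbol, 2055 several and 12061 none here. The highest-mean probe set per gene gave 17958 genes. A linear model with a mean for each group was fitted over the 12 arrays with limma 3.58.1 under R 4.3.3 (8 residual degrees of freedom), with moderated variances and a mean-variance trend. Tests were two-sided with Benjamini-Hochberg adjustment over all genes of a comparison, called at 0.05. Errors of fold changes are standard errors.

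All members are accounted for by role. Array values are given for members among the 6 largest called changes of a comparison and for up to 2 called members of a role, and other lists are represented by up to 3 called genes per comparison, with RB1 and E2F genes by value. Members and lists were chosen with earlier results of these data known. Same-numbered replicates did not deviate together (18 correlations of -0.059 to 0.088). Tables and plots used Python 3.11.15, pandas 2.3.3 and matplotlib 3.10.9.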

Additional observations from a re-analysis of the deposited data

Results flagged for a closer look

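The TNFα effect differed between the siRNAs, by the interaction test in limma, for 2 mitosis genes that served for comparison, and for none of the replication genes. TTK, the spindle checkpoint kinase, changed by -0.04 ± 0.039 with c-Jun siRNA and by -0.24 ± 0.039 with control siRNA, a difference of 0.21 (± 0.055, limma adjusted p = 0.0349). HMMR, a spindle-associated hyaluronan receptor, changed by 0.14 ± 0.044 and -0.08 ± 0.044, a difference of 0.22 (± 0.063, limma adjusted p = 0.0472). The same test passed for JUN and for 2 of the mesenchymal markers. JUN changed with TNFα by 0.53 with c-Jun siRNA and by 0.72 with control siRNA, a difference of -0.19 (± 0.045, limma adjusted p = 0.0173). FN1 changed by 0.20 and 0.36, a difference of -0.16 (± 0.041, limma adjusted p = 0.0283), and ZEB1 by -0.15 and -0.38, a difference of 0.23 (± 0.057, limma adjusted p = 0.0207). Groups of 3 arrays were too small to tell whether a single array is an outlier. Counts of members called with each array left out are given below.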

How the results depend on the processing

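The number of members called stayed within 1.5 times its value in most alternatives. The exceptions for TNFα with c-Jun siRNA (15 called) were 2 with the position column as a fixed block and 8 at an adjusted p under 0.01. Of all genes 13.2% and 22.3% were called in these settings. Those for c-Jun siRNA under vehicle (21) were 10 with the fixed block and 10 within column 5, and those for c-Jun siRNA under TNFα (19) were 12 within column 7 (12 higher) and 0 within column 9 (14 with an unadjusted limma p under 0.05). For c-Jun siRNA under vehicle 19.2% of all genes were called with the fixed block, against 28.9% without it, so calls fell array-wide. These fits within columns 5, 7 and 9 leave 1 array in a group, so their counts cannot show whether the members are stable. Leaving out each array in turn gave 16 to 20 for c-Jun siRNA under TNFα, 17 to 21 under vehicle, 8 to 15 for TNFα with c-Jun siRNA, 15 to 19 with control siRNA and 0 to 1 for the interaction. The 8 came without replicate 3 of c-Jun siRNA with vehicle, and the 1, FEN1, without replicate 1 of control siRNA with vehicle. Averaging the probe sets of RFC1 turned its sign for TNFα with c-Jun siRNA to 0.17 and ended its calls for c-Jun siRNA, at 0.00 under TNFα and -0.18 under vehicle. It also ended the RFC1 call for TNFα with control siRNA, where the probe sets by themselves gave -0.30 and 0.28. Apart from the stricter threshold and the within-column fits, every alternative called CDC6, TYMS, ORC2, RFC4, RRM2, MCM3, MCM5 and RFC2 for c-Jun siRNA at both treatments. The replicate numbers are shared by the groups but did not pair the samples, and the replicate block gave 19, 21, 14, 19 and 0 in the same order. It changed the count of calls by at most 1. The cause of the moves was not tested.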
